A study of Mus musculus with 140 samples.

Results

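The calcium/calmodulin-dependent kinase genes examined here are Camk2a, Camk2b, Camk2d, Camk2g, Camkk1, Camkk2, Camk4 and Camk1d, and their members in the data are the eCLIP clusters whose midpoint and strand fall inside those genes (GENCODE vM21, mm10). These 8 genes, of 30676 genes with a listed cluster, held 17243 of the 13235198 clusters listed over 70 immunoprecipitation (IP) libraries, and 8025 of the 3578924 clusters that were enriched over the matched input at p of at most 0.001. eCLIP sequences the RNA fragments that stay bound to an antibody after crosslinking. It was done with an antibody to TDP-43, an RNA-binding protein that prefers UG repeats, on crosslinked tissue, and with an antibody to m6A, the N6-methyladenosine mark, on poly(A)-selected RNA.

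The R6/2 groups were 3-month-old mice of the strain B6CBA-Tg(HDexon1)62Gpb/3J, which express exon 1 of human huntingtin with an expanded repeat on top of their own intact huntingtin genes, and were set against non-transgenic (NT) littermates of the same age. For each antibody and each region (striatum and cortex) there were 8 R6/2 and 8 NT libraries, 4 male and 4 female per genotype. The other experiment was m6A eCLIP on male C57Bl/6J mice given a TDP-43 antisense oligonucleotide (ASO, 500 ug into the ventricle) or PBS at 5 weeks of age, with 3 ASO and 3 PBS libraries from tissue taken 2 weeks after dosing. The sample labels call this tissue cortex, whereas the protocol text attached to the same samples speaks of striatum. All samples were bulk tissue, in which fewer cells of a type and less RNA per cell cannot be told apart.

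These kinases carry calcium signals in neurons: calcium binds calmodulin, and calmodulin relieves the autoinhibition of the kinase. CaMKII, built from subunits made by Camk2a, Camk2b, Camk2d and Camk2g, is abundant at synapses and is known for its part in synaptic plasticity. CaMKK1 and CaMKK2, made by Camkk1 and Camkk2, are upstream kinases that phosphorylate CaMKI and CaMKIV, made by Camk1d and Camk4 among others, and CaMKK2 also phosphorylates AMP-activated kinase.

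In mm10, 6 of the genes lie at chr11:5969644-6066362 (Camk2b, minus strand), chr3:126596302-126846326 (Camk2d, plus), chr14:20734875-20794088 (Camk2g, minus), chr11:73019008-73042073 (Camkk1, plus), chr5:122731170-122779409 (Camkk2, minus) and chr2:5293457-5714515 (Camk1d, minus). The 3′ UTR of the principal transcript is longest for Camk1d, with 5529 bases, and shortest for Camkk2, with 988 bases, and some Camkk2 sites lie in a longer 3′ UTR of other annotated transcripts.

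Most of the sites on these genes lie in the 3′ UTR. The stretches below come from sites named in the results, changed or not, and other sites are not printed. They are in the GRCm38 (mm10) reference, 5′ to 3′ on the strand of the gene. Capitals mark TGTGT in TDP-43 sites and GGACT in m6A sites. Each stretch is the 30 bases of its site with the most starts of that motif, so a motif in it was selected for. Sites are stretches where enriched clusters of 4 or more of the 16 libraries of an R6/2 experiment, or 3 or more of the 6 ASO and PBS libraries, overlap. The Camkk1 TDP-43 stretch starts the 1 site whose enrichment was lower in R6/2 cortex past the test, and it holds no TGTGT:
Camkk1 TDP-43, chr11:73040558-73040587, plus strand: gactggctggtgaggcccaggggagaaggc
Camkk1 m6A, chr11:73040897-73040926, plus strand: gcagtcatctGGACTtgacattcatGGACT
Camkk2 TDP-43, chr5:122733616-122733645, minus strand: gtaccaggtgaaTGTGTGTggggtttgagc
Camkk2 m6A, chr5:122733810-122733839, minus strand: agaaaaaaaaaaGGACTtgactccatgtcg
Camk1d m6A, chr2:5298855-5298884, minus strand: tgcacctgcataGGACTggaagatagaagg
Camk2g m6A, chr14:20736211-20736240, minus strand: ggcgtggcctcaGGACTgaaagcctGGACT
Camk2b m6A, chr11:5970446-5970475, minus strand: tgccggctgcctGGACTcgttgtgggtggc

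Both Camkk2 stretches lie inside 1 m6A site of cortex, chr5:122733569-122733859, and the last 3 stretches lie in m6A sites that were higher after the ASO. In a window of 100 bases around the midpoint of each site, TGTGT was found in 9 of 48 TDP-43 sites of striatum on these genes and in 20 of 115 of cortex, beside 13.1% and 13.6% of all TDP-43 sites. TGTGT was more frequent in windows 1 kb away from all TDP-43 sites, at 17.6% in striatum and 17.5% in cortex, and less frequent on the opposite strand, at 7.87% and 8.13%. The windows 1 kb away were placed along the genome and not along the transcript. They can therefore fall in introns or outside the gene, and are not matched to the sites. Of all TDP-43 sites in 3′ UTRs, where most of the kinase sites lie, 21.9% in striatum and 21.2% in cortex held it. GGACT was found in 7 of 36 m6A sites of striatum and 6 of 37 of cortex, beside 24.9% and 25.4% of all m6A sites and 28.0% and 28.2% of those in 3′ UTRs. The shares for GGACT were 8.61% and 8.82% in windows 1 kb away and 7.72% and 7.39% on the opposite strand. A window covers only the middle of a wide site, so a site without a match can hold the motif elsewhere. The printed GGACT of the Camkk1 site and of the Camkk2 site of cortex lie outside these windows. The shares therefore do not give how many kinase sites hold a motif. A match describes letters in a window and does not mark a bound or methylated base.

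The libraries held 133185 to 260687 listed clusters each, and 4929 to 99040 enriched ones. TDP-43 libraries of striatum were the shallowest, with 6768 to 24430 enriched clusters in R6/2 and 4929 to 24127 in NT, against 15803 to 44115 in R6/2 and 28911 to 54931 in NT cortex. In m6A libraries the numbers were 61821 to 86900 in R6/2 and 67501 to 76711 in NT striatum, and 61993 to 79426 in R6/2 and 56398 to 71106 in NT cortex. Of the R6/2 libraries, 5 TDP-43 libraries of striatum and 3 of cortex had 30% or more of their listed clusters in introns, and no NT library did. Summed values of striatal projection neuron markers were lower in R6/2 in each R6/2 experiment, with 106 to 122 in R6/2 and 163 to 211 in NT for m6A in striatum, and 29.0 to 45.0 in R6/2 and 64.8 to 130 in NT for TDP-43 in striatum. In cortex they were at most 49.2 in R6/2 and 56.6 to 70.3 in NT for m6A, and 1.18 to 5.30 in R6/2 and 9.75 to 17.4 in NT for TDP-43, where Drd1 and Drd2 had no enriched cluster. Of these marker genes, 8 of 8 tested were lower in R6/2 past the test for m6A in striatum, 6 of 8 for TDP-43 in striatum, 5 of 7 for m6A in cortex and 3 of 3 for TDP-43 in cortex. The markers of cortical excitatory neurons, astrocytes, oligodendrocytes and microglia gave no call in any R6/2 comparison, but for TDP-43 few could be tested. In striatum these were 1 of 6 cortical excitatory, 1 of 3 astrocyte and 2 of 3 oligodendrocyte markers. In cortex they were 3 of 6, 2 of 3 and 2 of 3. The 2 microglia markers had no enriched TDP-43 cluster, so no call was possible. The part of any of these cell types in the values below was not tested.

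The number of clusters differed widely among the kinases. Camk2b had 2066 enriched of 2698 listed clusters over all libraries, Camk2a 1867 of 2997, Camk2g 1204 of 1777, Camk1d 858 of 2996, Camkk1 698 of 1052, Camk4 623 of 1758, Camkk2 556 of 1699 and Camk2d 153 of 2266. Thus Camk2d was covered by listed clusters but rarely enriched, and no TDP-43 library of striatum held an enriched Camk2d cluster. In TDP-43 libraries of cortex, 92.6% of the enriched clusters of Camk2b lay in the 3′ UTR, with 89.4% for Camk2g, 87.5% for Camk1d, 86.1% for Camkk1 and 68.2% for Camkk2, beside 34.9% over all genes. Camk2a and Camk4 differed from these, with 60.4% and 58.8% of their enriched clusters in coding sequence, and 31.1% of those of Camk4 in introns. In m6A libraries of striatum the 3′ UTR held all enriched clusters of Camk2d and Camkk1, 98.7% of those of Camk1d and 32.3% of those of Camk4, beside 44.6% over all genes.

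The first question was whether TDP-43 bound these transcripts differently in R6/2 striatum. A gene's value is its number of enriched clusters divided by a size factor of the library, so it counts separate enriched stretches and not the amount of RNA in them. Fold changes are differences of log2(value + 0.5) in a limma fit with sex as a covariate over all genes tested. Camkk2, the AMP-activated kinase kinase, Camk4 and Camk1d were lower in R6/2 and Camk2a was higher, so that 4 of the 6 genes tested passed the threshold, an adjusted p (Benjamini-Hochberg) under 0.05, beside 14.3% of all genes tested (7.97% lower and 6.35% higher). The median change of the 6 was -0.65, and that of all genes tested was -0.05. Camkk1 and Camk2d had too few clusters to be tested.

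Camkk2 values in striatum had a lowest, median and highest of 0, 1.23 and 3.61 in R6/2, against 2.50, 6.69 and 9.21 in NT. All 8 R6/2 libraries lay below the NT mean, but the ranges overlapped. The fitted change was -2.15 (SE 0.43, adjusted p = 0.00272). These are few clusters, 0 to 5 per R6/2 library and 1 to 11 per NT library. Camk4, the nuclear kinase that phosphorylates CREB, had 1.58, 3.69 and 5.40 in R6/2, against 4.54, 8.65 and 12.5 in NT. Again all R6/2 libraries lay below the NT mean with overlapping ranges, and the change was -1.21 (SE 0.24, adjusted p = 0.00269).

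Camk1d, a CaMKI isoform, had 0, 0.410 and 2.26 in R6/2 striatum, against 0, 5.71 and 7.57 in NT. The R6/2 libraries held 0 to 3 clusters on it, and 1 NT library also held none (-2.07, SE 0.60, adjusted p = 0.0263). Camk2a, the main CaMKII subunit of forebrain excitatory neurons, had 6.69, 13.8 and 16.4 in R6/2, against 2.50, 7.73 and 10.02 in NT. It was higher than the NT mean in 7 of 8 R6/2 libraries (0.80, SE 0.25, adjusted p = 0.0369). Camk2b averaged 24.6 ± 4.93 in R6/2 and 26.2 ± 5.41 in NT, and Camk2g 3.70 ± 2.26 in R6/2 and 3.32 ± 2.32 in NT (SD, n = 8 each), with neither past the test.

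Leaving out any 1 of the 16 libraries left Camkk2 and Camk4 past the threshold each time, but Camk2a only 6 times and Camk1d only 7 times. Without the 5 libraries with 30% or more of their listed clusters in introns none of the 6 passed the test in limma, with 5 at an unadjusted p under 0.05 (1.12% of all genes passed), with changes of -0.87 for Camkk2 (adjusted p = 0.25), -1.23 for Camk4 (adjusted p = 0.0558), -0.78 for Camk1d (adjusted p = 0.588) and 1.20 for Camk2a (adjusted p = 0.122). Those 5 libraries were the 4 female R6/2 libraries and 1 male one. That fit therefore set only male R6/2 libraries against NT libraries of both sexes, and intronic share and sex cannot be told apart in it. With all listed clusters counted, enriched or not, Camk2a, Camk4 and Camk1d changed sign, to -0.24, 0.15 and 0.07, and Camk2a was then called lower (adjusted p = 0.0344).

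**Figure D1:**
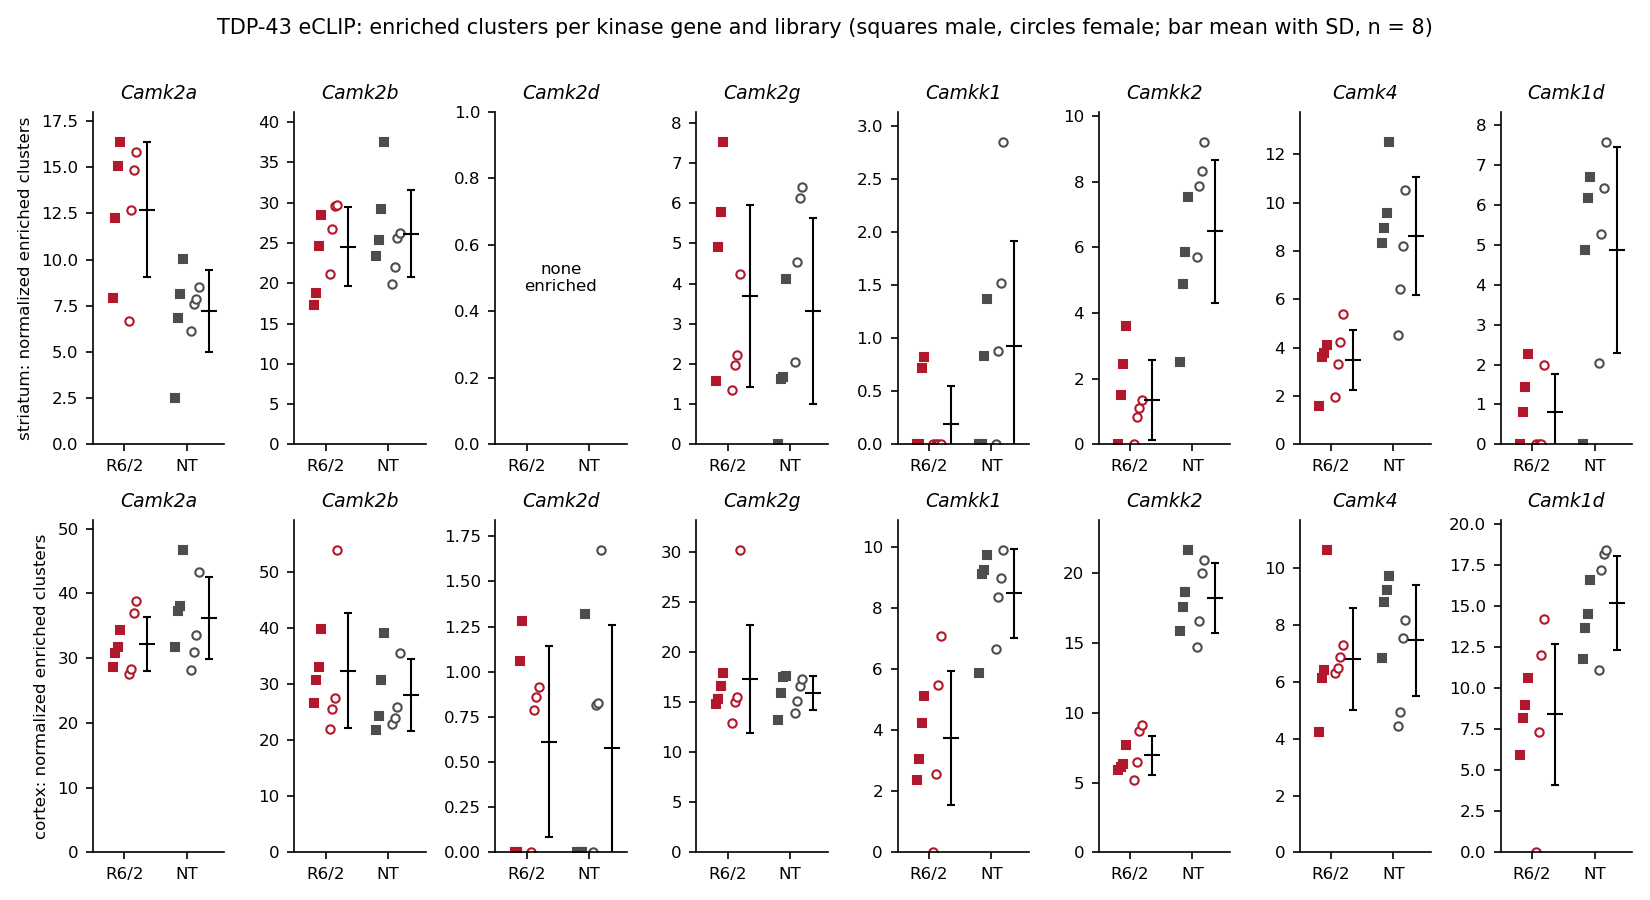
Normalized number of enriched TDP-43 clusters (vertical axes) on each kinase gene, with 1 point per library, R6/2 left of NT, for striatum and cortex; squares are male and circles female libraries, and bars mark means with the SD (n = 8 per group). Camkk2 averages 6.95 in R6/2 and 18.2 in NT cortex with no overlap between the groups, and Camk2a averages 12.7 in R6/2 and 7.21 in NT striatum.

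In cortex, Camkk2 and Camkk1 were lower in R6/2, the only 2 of 7 genes tested that passed. They stand beside 7.79% of all genes tested (6.11% lower and 1.69% higher). Camkk2 values ran from 5.16 to 9.15 (median 6.42) in R6/2, against 14.7 to 21.7 (median 18.1) in NT. The groups did not overlap, in males or in females, and the change was -1.34 (SE 0.13, adjusted p = 5.09e-06). The number of listed Camkk2 clusters, enriched or not, overlapped between the groups, with 25 to 38 per R6/2 library and 22 to 38 per NT library. The number that reached enrichment over input was 3 to 11 in R6/2 against 18 to 25 in NT.

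Camkk1 in cortex had a lowest, median and highest of 0, 3.66 and 7.10 in R6/2, against 5.88, 9.06 and 9.92 in NT. All 8 R6/2 libraries were below the NT mean (-1.37, SE 0.40, adjusted p = 0.0421), but the call held in only 4 of the 16 fits that left out 1 library. Camk1d had 0, 8.59 and 14.2 in R6/2 and 11.1, 15.6 and 18.4 in NT, with all R6/2 libraries below the NT mean and a change that missed the threshold (-1.20, SE 0.49, adjusted p = 0.153). The CaMKII genes and Camk4 had changes between -0.16 and 0.18, none past the test. Camk2a averaged 32.2 ± 4.18 in R6/2 and 36.2 ± 6.39 in NT cortex (SD, n = 8 each). Without the 3 libraries with 30% or more of their listed clusters in introns, an alternative chosen after seeing the data, the calls were Camkk2 (-1.24, adjusted p = 4.00e-05), Camkk1 (-0.87, adjusted p = 0.0158) and Camk1d (-0.67, adjusted p = 0.0315), beside 5.83% of all genes.

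The sites show where on the transcripts the enriched clusters lay. On Camkk2 in cortex there were 17 TDP-43 sites, 13 of them in the 3′ UTR, 3 in coding sequence and 1 in the 5′ UTR. Of these, 15 were enriched in more NT than R6/2 libraries, and 2 were enriched in all libraries of both groups, beside 51.8% of all cortical sites enriched in more NT libraries and 15.9% in more R6/2 libraries. The site with the printed TGTGTGT, chr5:122733456-122733655, is one of the 2, with a log2 fold over input of 3.61 in R6/2 and 3.43 in NT. Its neighbour chr5:122733764-122733809, 388 bases after the stop codon, holds no TGTGT and is not printed above. That neighbour was enriched in 2 of 8 R6/2 and 8 of 8 NT libraries. Its log2 fold was 2.13 ± 0.522 in R6/2 and 3.55 ± 0.410 in NT (SD). The difference missed the threshold in limma (-1.18 after centring each library on its median, adjusted p = 0.0805). In striatum all 6 Camkk2 sites were enriched in more NT libraries, beside 51.5% of all striatal sites. Since enriched clusters per gene and these library numbers come from the same lists, they are 1 measurement and not 2.

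All 11 Camkk1 sites of cortex were enriched in more NT than R6/2 libraries as well, and 10 of them lie in the 3′ UTR. The lowest adjusted p was at chr11:73040558-73040680, 328 bases after the stop codon, whose first bases are printed above. Its log2 fold over input ran from 2.02 to 4.07 (median 2.87) in R6/2, against 3.92 to 5.62 (median 4.70) in NT. The ranges overlapped in a narrow span, 5 R6/2 and 8 NT libraries were enriched there, and the centred difference was -1.58 (SE 0.32, adjusted p = 0.0463). It was the only 1 of 78 kinase sites tested in cortex that passed the test, beside 0.0972% of all sites tested. The call held in 3 of the 16 fits that left out 1 library and was lost without the libraries rich in intronic clusters. In striatum none of 37 sites tested passed in limma, with 8 at an unadjusted p under 0.05, beside 0.952% of all sites called.

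**Figure D2:**
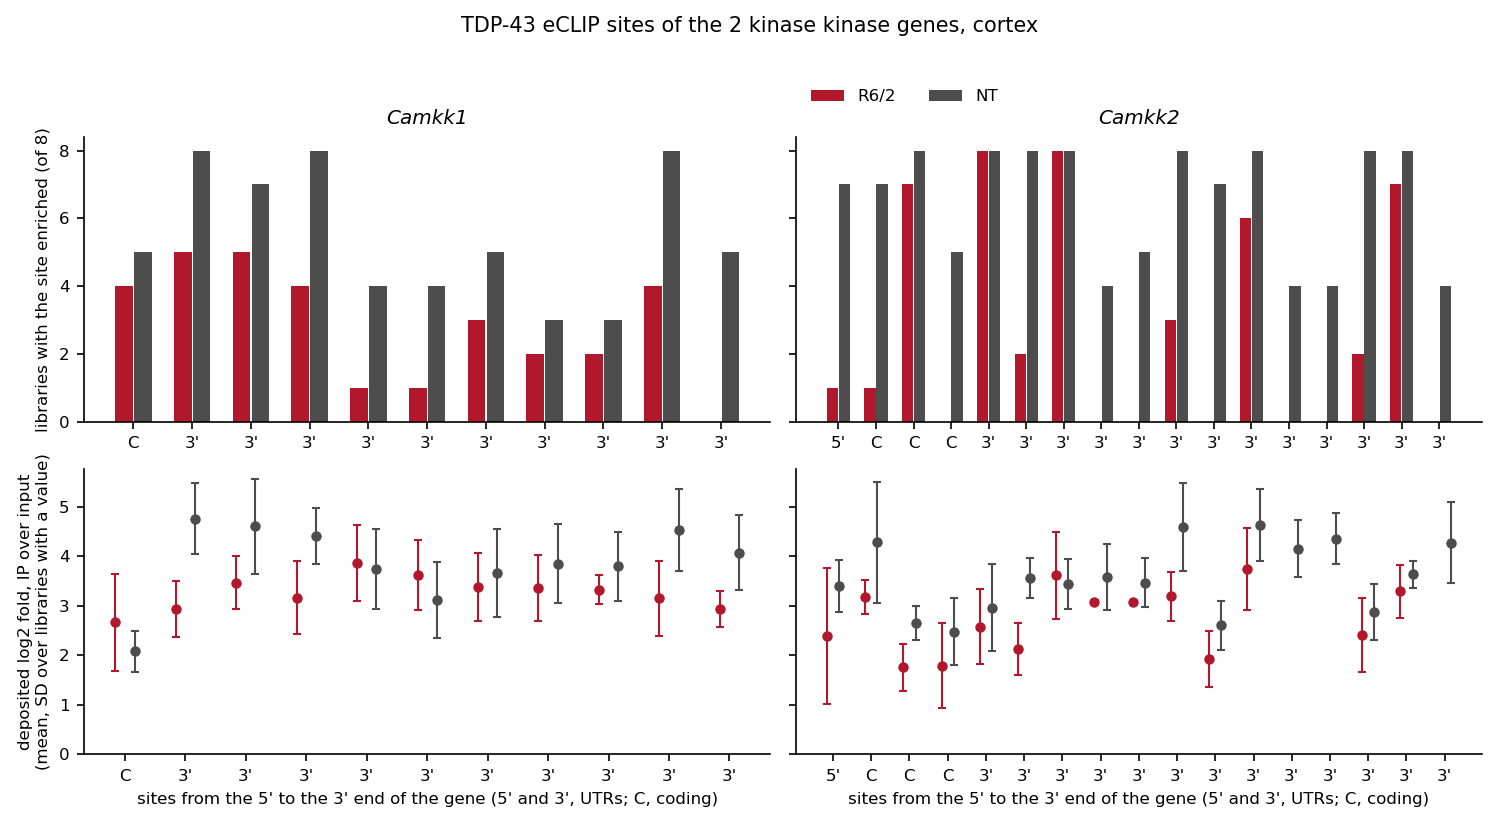
TDP-43 sites of cortex on Camkk1 and Camkk2, ordered along each transcript, with the number of libraries (of 8 per group) in which each site was enriched above and the mean log2 fold over input with its SD over libraries with a value below, R6/2 left of NT. At 15 of 17 Camkk2 sites and 11 of 11 Camkk1 sites more NT than R6/2 libraries were enriched.

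For m6A the question was the same, and the kinase genes called were all lower in R6/2. In striatum Camkk1, Camk2b, Camkk2 and Camk2a passed the test, 4 of 8 genes tested, beside 9.66% of all genes tested (5.84% lower and 3.82% higher). The median change of the 8 was -0.34, and that of all genes was 0.02. Camkk1 values ran from 7.57 to 11.3 (median 9.97) in R6/2, against 13.8 to 22.6 (median 17.1) in NT. The groups did not overlap, and the change was -0.82 (SE 0.10, adjusted p = 9.65e-06). Camkk2 had 3.46, 5.04 and 8.16 (lowest, median, highest) in R6/2, against 5.30, 8.01 and 10.4 in NT, with overlapping ranges and all 8 R6/2 libraries below the NT mean (-0.57, SE 0.15, adjusted p = 0.0184).

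Of the CaMKII subunits, Camk2b had 19.6, 25.5 and 34.9 in R6/2 striatum, against 27.9, 35.2 and 44.3 in NT, with all 8 R6/2 libraries below the NT mean (-0.47, SE 0.08, adjusted p = 0.000313). Camk2a had 16.3, 23.1 and 30.1 in R6/2, against 22.7, 27.7 and 39.0 in NT, and 6 of 8 R6/2 libraries lay below the NT mean (-0.29, SE 0.09, adjusted p = 0.0381). Camk2a passed in only 8 of the 16 fits that left out 1 library, and the other 3 in all 16. Camk4 averaged 10.999 ± 2.78 in R6/2 and 14.3 ± 2.86 in NT (SD, n = 8 each), with all R6/2 libraries below the NT mean but no call (-0.38, adjusted p = 0.128). Camk2d, Camk2g and Camk1d did not pass the test, with changes of -0.24, 0.03 and -0.05.

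In cortex the m6A calls were Camk2a, Camk2b and Camkk2, 3 of 8 genes tested, all lower in R6/2, beside 6.23% of all genes tested (3.76% lower and 2.47% higher). Camk2a had 17.8, 22.3 and 24.8 in R6/2, against 20.6, 30.9 and 35.6 in NT. All 8 R6/2 libraries lay below the NT mean, and the change was -0.43 (SE 0.07, adjusted p = 0.000639). Camk2b had 19.1, 22.3 and 26.0 in R6/2, against 24.4, 29.2 and 31.9 in NT (-0.34, SE 0.07, adjusted p = 0.00637). Camkk2 had 2.67, 5.29 and 8.89 in R6/2, against 6.46, 7.32 and 9.99 in NT (-0.57, SE 0.17, adjusted p = 0.0435), and passed in only 5 of the 16 fits that left out 1 library. Camkk1 averaged 11.6 ± 1.24 in R6/2 and 13.2 ± 1.64 in NT cortex (SD, n = 8 each), with no call (-0.18, SE 0.09, adjusted p = 0.257).

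The m6A change of Camkk1 in number of enriched clusters differed between regions. In a fit over both regions the R6/2 change in striatum minus that in cortex was -0.63 (SE 0.13, adjusted p = 0.0150), and only 0.254% of all genes passed this test. It held in all 32 fits that left out 1 library. The test was not run on the bases that these clusters cover. Those averaged 938 in R6/2 and 988 in NT striatum, and 955 in R6/2 and 943 in NT cortex. None of the other kinase genes passed this test for m6A. For TDP-43 the difference was 1.04 for Camk2a (SE 0.27, adjusted p = 0.0817) and -1.05 for Camk4 (SE 0.32, adjusted p = 0.126), neither past the test, beside 0.0690% of all genes called. No kinase gene had a change that differed between males and females past the test in any R6/2 comparison, nor did any other gene (0% of all genes tested). At an unadjusted p under 0.05 limma gave 1 kinase gene for TDP-43 in striatum, 1 for m6A in cortex and 0 in the other 2.

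Camkk2 was the only kinase gene that was lower past the threshold in all 4 R6/2 comparisons. Of 1761 genes tested in all 4, 15 were, or 0.852%. These calls are on numbers of enriched clusters. Tested on the bases that the clusters cover, only the Camkk2 call for TDP-43 in cortex was kept. For TDP-43 in striatum only 6 of 8 R6/2 libraries held an enriched Camkk2 cluster. Libraries without one count as 0 bases, so the call lost there does not show a similar covered length. The Camkk2 call for m6A in cortex held in only 5 of the 16 fits that left out 1 library. The one for TDP-43 in striatum was lost without the libraries rich in intronic clusters. The cluster lists hold no transcript levels, so the part of a change in Camkk2 RNA was not tested.

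**Figure D3:**
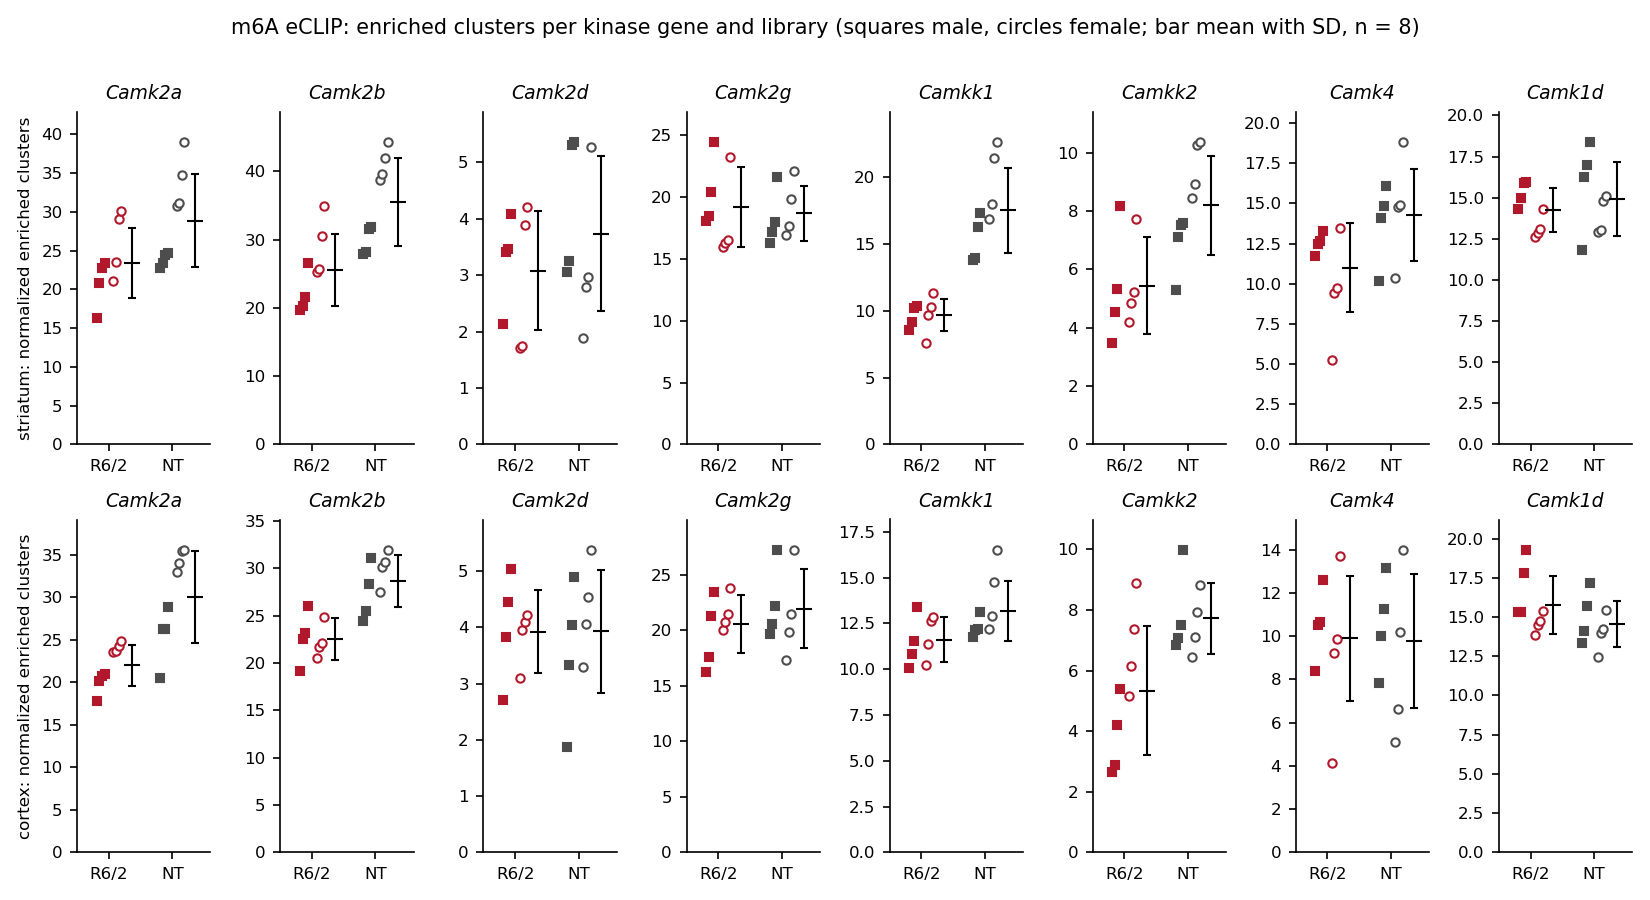
Normalized number of enriched m6A clusters (vertical axes) on each kinase gene, with 1 point per library, R6/2 left of NT, for striatum and cortex; squares are male and circles female libraries, and bars mark means with the SD (n = 8 per group). Camkk1 is separated in striatum, with 7.57 to 11.3 in R6/2 and 13.8 to 22.6 in NT, and overlaps in cortex.

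The lower m6A cluster numbers stood beside similar numbers of covered bases. In striatum the enriched Camkk1 clusters were on average 97.0 ± 13.7 bases wide in R6/2 and 59.6 ± 13.2 in NT (SD, n = 8 each), without overlap, and together they covered 938 bases in R6/2 and 988 in NT. Over all genes the widths were 81.0 ± 8.61 bases in R6/2 and 79.4 ± 7.16 in NT. For Camkk2 the widths were 125 ± 38.1 bases in R6/2 and 85.9 ± 22.8 in NT, with 642 bases covered in R6/2 and 661 in NT. Tested on covered bases in place of cluster numbers, no kinase gene passed in either m6A comparison in limma, with 3 at an unadjusted p under 0.05 in striatum and 2 in cortex, beside 5.29% and 4.73% of all genes past the adjusted threshold. The change of Camkk1 in striatum was -0.12 (adjusted p = 0.0693). The enriched m6A stretches of Camkk1 and Camkk2 in striatum were thus listed as fewer and wider clusters in R6/2, at a similar covered length.

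Camkk1 had 2 m6A sites and Camkk2 3 in striatum, and each was enriched in all 8 R6/2 and all 8 NT libraries, in cortex as well. The Camkk1 site with the 2 printed GGACT, chr11:73040753-73041530 in striatum, had a log2 fold over input of 2.09 ± 0.223 in R6/2 and 2.13 ± 0.326 in NT (SD). The Camkk2 site with the printed GGACT had 2.22 ± 0.320 in R6/2 and 1.78 ± 0.593 in NT striatum. No kinase site was called for m6A in limma, of 31 tested in each region, with 5 at an unadjusted p under 0.05 in striatum and 2 in cortex, beside 0.0933% and 0.0340% of all sites called.

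For TDP-43 on Camkk2 in cortex the covered bases were lower too. Its enriched clusters covered 503 bases in R6/2 and 1101 in NT, with widths of 81.1 ± 18.1 bases in R6/2 and 54.7 ± 4.69 in NT. It was the only kinase gene called on covered bases, with a change of -0.92 (adjusted p = 7.37e-06), beside 2.11% of all genes. In striatum Camkk2 clusters covered 155 bases in R6/2 and 576 in NT. No kinase gene passed on covered bases there in limma, with 3 at an unadjusted p under 0.05, beside 3.24% of all genes past the adjusted threshold. Only 6 of 8 R6/2 libraries held an enriched Camkk2 cluster there. For Camk1d 4 of 8 R6/2 and 7 of 8 NT libraries held one. A library without one counts as 0 bases, which lies far from the others on the log2 scale and can widen the spread. The missing calls for Camkk2 and Camk1d therefore do not show a similar covered length.

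The calls rest on the rule for an enriched cluster. Counted over all listed clusters, 4 kinase genes passed for TDP-43 in striatum, beside 19.4% of all genes. These 4 calls do not repeat the 4 on enriched clusters. Camk2a was called lower there (-0.24), and Camk4 (0.15) and Camk1d (0.065) changed sign. In cortex 0 passed in limma (1 at an unadjusted p under 0.05), beside 5.28%. For m6A 2 passed in striatum and 3 in cortex, beside 7.64% and 4.57%. Camk2d was called higher in striatum (0.51), whereas all R6/2 m6A calls on enriched clusters were lower. In cortex Camk2d passed under 1 of 9 alternatives, with changes of -0.14 to 0.40 over these. In the ASO experiment 8 passed, beside 90.1%. With the thresholds of the study, which also ask for a log2 fold over 3, 1 passed for TDP-43 in striatum and 2 in cortex, beside 4.66% and 3.92%. For m6A only 3 kinase genes had enough such clusters to be tested in each comparison, and 0 passed in limma in striatum, in cortex and in the ASO experiment, with 0 at an unadjusted p under 0.05, beside 0.126%, 0.128% and 0.223% of all genes past the adjusted threshold.

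**Figure D4:**
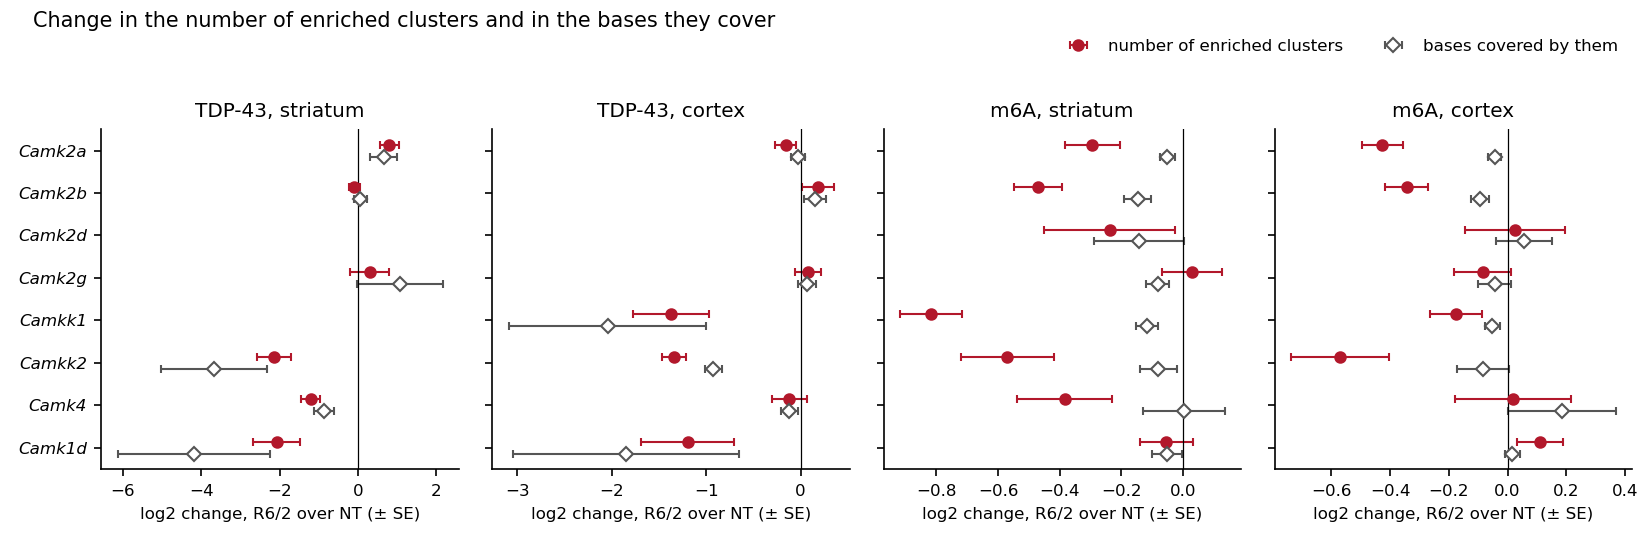
Log2 change on the number of enriched clusters and on the bases they cover for each kinase gene in each R6/2 comparison (R6/2 over NT), with error bars of 1 SE and a scale of its own in each panel. Camkk1 m6A in striatum is -0.82 by number and -0.12 by bases, while Camkk2 TDP-43 in cortex is -1.34 by number and -0.92 by bases.

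Between the regions of NT mice all 7 genes tested differed for TDP-43, and 1 of 8 for m6A. After a joint scaling, Camk2b averaged 37.2 ± 8.21 in striatum and 23.3 ± 4.60 in cortex, and Camk4 12.3 ± 3.61 in striatum and 6.29 ± 1.77 in cortex, so both were higher in striatum. The other 5 genes tested were lower there: Camk2a averaged 10.2 ± 3.03 in striatum and 30.1 ± 4.03 in cortex (SD, n = 8 each), a change of -1.58 (adjusted p = 6.65e-06). Camkk2 averaged 9.19 ± 3.13 in striatum and 15.2 ± 1.69 in cortex (-0.77, adjusted p = 0.00304). The 7 calls stand beside 52.2% of all genes tested, whose median change was -0.66. Depth and region moved together in these libraries and cannot be told apart. For m6A only Camk2g passed, with 17.3 ± 2.04 in striatum and 22.3 ± 3.62 in cortex (-0.35, adjusted p = 0.0137), beside 18.3% of all genes.

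The ASO experiment asked how m6A clusters change when TDP-43 is reduced. On Tardbp, the target, the scaled number of enriched m6A clusters was 7.48 to 9.46 after the ASO, against 16.8 to 22.6 after PBS. The change in limma was -1.12 (SE 0.14, adjusted p = 0.00366). These are numbers of m6A clusters and do not measure how far TDP-43 RNA or protein fell. The lists of this experiment share 99.2% to 99.3% of their intervals within a treatment and about 1.96% between treatments, so clusters had been called once per treatment. The spread between libraries is then too small, the p-values are too small with it, and an interval boundary common to 1 treatment cannot be told apart from the ASO.

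Camk4 had 5.34, 4.14 and 4.20 after the ASO, against 9.65, 7.89 and 9.05 after PBS. The groups did not overlap, and the change was -0.89 (SE 0.12, adjusted p = 0.00499). Its clusters were 144 ± 14.5 bases wide after the ASO and 59.5 ± 7.46 after PBS, and covered 624 bases after the ASO and 561 after PBS. Camk1d had 22.4, 20.7 and 19.97 after the ASO, against 16.4, 17.8 and 18.1 after PBS (0.26, SE 0.06, adjusted p = 0.0211). Camkk1 had 29.9, 27.9 and 28.4 after the ASO, against 26.1, 25.7 and 24.4 after PBS (0.18, SE 0.04, adjusted p = 0.0222). Camk2a had 53.4, 53.8 and 54.6 after the ASO, against 48.2, 51.3 and 46.1 after PBS (0.15, SE 0.04, adjusted p = 0.0357), with 50 to 52 clusters per library before scaling in both groups. These were 4 of 8 genes tested, 3 higher and 1 lower, beside 30.5% of all genes tested (13.5% higher and 16.9% lower), and none passed on covered bases in limma (3 at an unadjusted p under 0.05), beside 4.08% of all genes. Camk4 passed in all 6 fits that left out 1 library, Camkk1 and Camk1d in 2 and Camk2a in 1.

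At the level of sites 6 of 31 kinase sites tested were higher after the ASO and none was lower, beside 2.91% of all sites tested. On Camk1d the site chr2:5298631-5298943, 198 bases after the stop codon, had a log2 fold over input of 3.25, 3.36 and 3.48 after the ASO, against 1.54, 1.59 and 1.98 after PBS (1.71, adjusted p = 0.0082). A more distal Camk1d site, chr2:5294371-5294927, had 2.05, 2.29 and 2.40 after the ASO, against 0.53, 0.80 and 0.89 after PBS (1.56, adjusted p = 0.00756). The Camkk2 site chr5:122733523-122733864, which holds both printed Camkk2 stretches, had 1.88, 1.89 and 2.09 after the ASO, against 0.454, 0.546 and 0.966 after PBS (1.34, adjusted p = 0.011). In each of these the 3 ASO libraries lay above the 3 PBS libraries.

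The other 3 sites were in the 5′ UTR of Camk2a (1.08, adjusted p = 0.0142) and in the 3′ UTRs of Camk2g, chr14:20735999-20736619 (1.02, adjusted p = 0.0396), and Camk2b, chr11:5970355-5970609 (0.92, adjusted p = 0.0124). Again no groups overlapped. Of the 6 sites, 5 overlap a TDP-43 site of cortex, beside 32.7% of all sites called higher, 35.7% of all called lower and 19.1% of all tested. Over all m6A sites of the kinase genes, 23 of 32 in the ASO experiment overlap a TDP-43 site of cortex, as do 25 of 37 in the R6/2 experiment in cortex, and 18 of 36 in striatum overlap one of striatum, beside 19.1%, 16.5% and 8.77% of all m6A sites. The sites set side by side were not matched for width or for the number of TDP-43 clusters on their genes. Because the value at a site is that of the most overlapping listed cluster, ASO and PBS values come from different intervals, and how far this sets the differences was not tested.

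**Figure D5:**
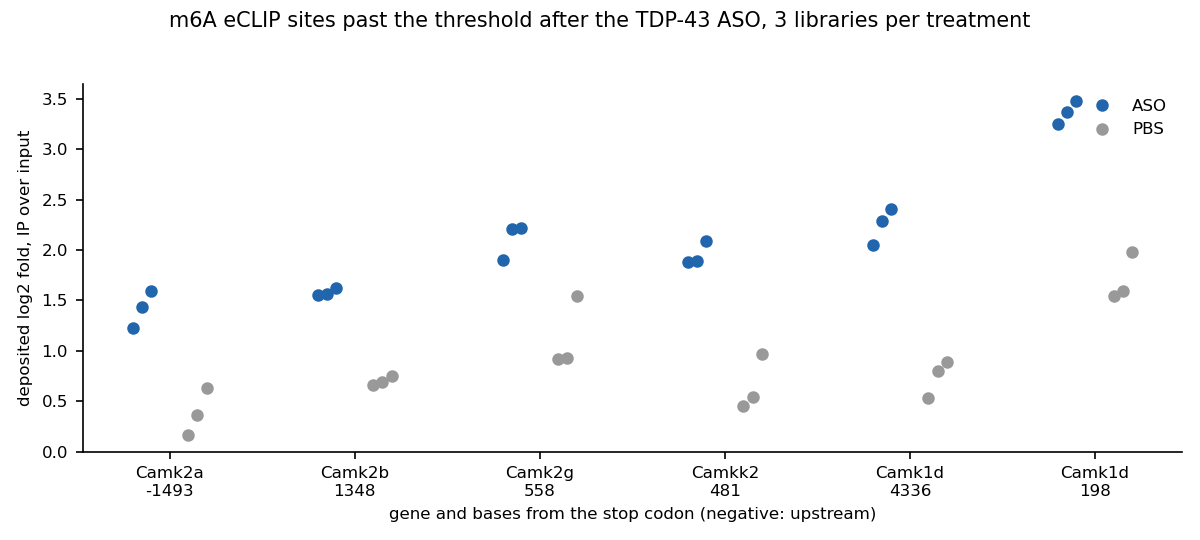
Log2 fold over input at the 6 kinase m6A sites called in the ASO experiment, with 1 point per library, ASO (n = 3) left of PBS (n = 3). At each site the ASO libraries lie above the PBS libraries, with 3.25 to 3.48 after the ASO and 1.54 to 1.98 after PBS at the stop-proximal Camk1d site.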

How the data were processed

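The authors deposited 1 list of clusters called by CLIPper for each IP library, with a −log10 p and a log2 fold of IP over size-matched input per cluster, in mm10; the aligner and its version are not given in the sources used here. Input libraries had no list and were not analysed here, and read depth is therefore unknown. Listed intervals in the R6/2 lists were almost never shared between libraries, so these were called per library.

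A cluster was given to the GENCODE vM21 gene that held its midpoint on its strand. A cluster was enriched at a deposited p of at most 0.001. Enriched clusters per gene were divided by a median-ratio size factor, and genes with at least 2 enriched clusters in 50% of libraries were tested on log2(value + 0.5) with limma 3.58.1 (R 4.3.3; trend, sex as covariate, Benjamini-Hochberg over all genes, called under 0.05). Site values were the deposited log2 folds, centred on each library's median, with a value in 75% of libraries of each group. Since no label ties a library to one animal, p-values measure the spread between these samples. Scripts used Python 3.11.15 and were tested on simulated data.

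All 8 genes of the rule are named. Others were named only from a fixed list of 25 genes of calcium/calmodulin signalling if called, or as the 3 genes most like the 2 kinase genes called most often, apart from Tardbp, the ASO's target, and the marker genes Drd1 and Drd2, named as checks. The genes and lists were chosen with earlier results of these data known. Alternatives were all listed clusters, the study's thresholds, covered bases, other scalings and constants, the replicate number as a block, each sex, and leaving out libraries. The value of 1 gene of the calcium/calmodulin list is not reported here.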

Additional observations from a re-analysis of the deposited data

Results flagged for a closer look

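Of 62 groups of 8 libraries examined, 1 held a library far from the others, where chance marks about 1 in 20 groups. It was R6/2 female replicate 4 for TDP-43 on Camk2g in cortex, with a value of 30.2 where the next library had 17.96 and the lowest 12.9. That library had 14 enriched Camk2g clusters, the number of other R6/2 libraries, and a size factor of 0.463.

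The R6/2 change in the number of enriched m6A clusters on Camkk1 in striatum minus that in cortex was -0.63 on the log2 scale, by a test of the difference itself. This difference was not tested on covered bases.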

How the results depend on the processing

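The lists hold no reads, so read depth is unknown, and its part in the number and width of clusters was not tested. TDP-43 libraries of striatum held the fewest enriched clusters. Under the alternatives other than leaving out 1 library, 286 of 390 values of single kinase genes or sites kept their direction and side of the threshold, 69 fell short of it, 5 newly passed it and 30 changed sign. Of 94 counts of kinase genes or sites called, 63 stayed within 1.5 times, 25 were lower and 6 higher. Where no cause is named, the cause was not tested.

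For TDP-43 in striatum the 4 genes called became 1 with the study's thresholds, 0 on covered bases, 0 in males alone, 2 in females alone and 0 without the libraries with 30% or more of their listed clusters in introns (chosen after seeing the data where used for cortex or for sites), 3 with the replicate number as a block, which lost Camk2a, and 2 to 4 when 1 library was left out. Leaving out the libraries with 30% or more of their listed clusters in introns left no female R6/2 library of striatum. On covered bases, R6/2 libraries of striatum without an enriched Camkk2 or Camk1d cluster count as 0. The loss of the Camkk2 and Camk1d calls there therefore does not show a similar covered length. Sign changed for Camk2a (-0.24), Camk4 (0.15) and Camk1d (0.065) over all listed clusters, for Camk2b on covered bases (0.058) and in females (0.16), and for Camk2g in females (-0.85) and between -0.10 and 0.49 when 1 library was left out. For TDP-43 in cortex the 2 genes called became 0 over all listed clusters and 1 with scaling by total, on covered bases, with the replicate number as a block and in females alone, and 1 to 3 when 1 library was left out. Sign changed for Camk1d over all listed clusters (0.075), Camk2a with the study's thresholds (0.050), Camk4 in females (0.12), and Camk2g without the libraries rich in intronic clusters (-0.0022) and between -0.015 and 0.14 when 1 library was left out.

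For m6A in striatum the 4 genes called became 2 over all listed clusters, 0 with the study's thresholds, 0 on covered bases, 2 in males alone and 3 to 4 when 1 library was left out. Sign changed for Camk2d (0.51, called higher), Camk4 (0.085) and Camk1d (0.057) over all listed clusters, for Camk2g with the study's thresholds (-0.034), on covered bases (-0.082), in females (-0.086) and between -0.022 and 0.067 when 1 library was left out, and for Camk4 on covered bases (0.0029). For m6A in cortex the 3 genes called became 0 with the study's thresholds, on covered bases and in males alone, and 2 to 3 when 1 library was left out. Sign changed for Camk2g with the study's thresholds (0.061) and in females (0.026), for Camk2d in females (-0.14), and when 1 library was left out for Camk2d (-0.10 to 0.084) and Camk4 (-0.086 to 0.17).

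In the ASO experiment the 4 genes called became 8 over all listed clusters, 0 with the study's thresholds, 0 on covered bases, 2 with the replicate block and 1 to 3 when 1 library was left out. Sign changed over all listed clusters for Camk2a (-0.075), Camk2b (-0.11), Camk2d (-0.029) and Camkk2 (0.11), with the study's thresholds for Camk2g (0.12), on covered bases for Camk2b (-0.084), Camk2d (-0.24) and Camk4 (0.17), and when 1 library was left out for Camk2d (-0.012 to 0.087) and Camkk2 (-0.22 to 0.017). The 6 sites called became 0 with the replicate block and 2 to 6 when 1 library was left out.

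The difference between regions was called for 0 kinase genes for TDP-43, 1 with 4 added before log2, and 0 to 1 when 1 library was left out. Between the NT regions the 7 genes called for TDP-43 became 2 over all listed clusters, where Camkk1 (0.088) and Camkk2 (0.071) changed sign, and 6 to 7 when 1 library was left out. The 1 gene called for m6A became 3 over all listed clusters, 2 with the replicate block and 1 to 2 when 1 library was left out. TDP-43 sites in striatum gave 0 calls, 2 with the replicate block and 0 to 3 when 1 library was left out. In cortex the 1 call became 0 when a cluster had to cover 50% or more of the site, 0 with the replicate block, 0 without the libraries rich in intronic clusters, 2 without centring on the library median and 0 to 1 when 1 library was left out. Same-numbered samples share only a number. Their deviations correlated at -0.18 to 0.46 for TDP-43 in striatum, with 4 of 8 pairs over 0.1, at -0.45 to 0.11 for TDP-43 in cortex, with 1 of 8 pairs over 0.1, and under 0.1 for m6A. Of 8 R6/2 libraries, 5 correlated best with the same-numbered one among NT libraries of their sex for TDP-43 in striatum and 5 for m6A in cortex. The block changed no other count by over 1.5 times.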

Other observations

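Other genes of calcium/calmodulin signalling were called in 3 of the 4 R6/2 comparisons. Of a list of 25 genes (calmodulins, other kinases of the family, regulators, calcineurin subunits and known targets), 1 of 16 tested was lower in R6/2 for TDP-43 in striatum, Grin2b, an NMDA receptor subunit that binds CaMKII (-0.38, SE 0.10, adjusted p = 0.013), beside 14.3% of all genes called in either direction. In cortex 1 of 19 was lower, Rcan2, a calcineurin inhibitor (-0.51, SE 0.13, adjusted p = 0.0241), beside 7.79% of all genes. For m6A in striatum 3 of 22 were lower in R6/2, among them Camkv, a kinase-like protein without known activity (-1.20, adjusted p = 0.0062), and the calmodulin gene Calm3 (-0.61, adjusted p = 0.01), and the calcineurin subunit gene Ppp3cb was higher (0.30, adjusted p = 0.0285), so 4 of 22 were called beside 9.66% of all genes. In cortex none of 22 passed in limma, with 5 at an unadjusted p under 0.05, beside 6.23% of all genes called. The list medians in these 4 comparisons were -0.03, -0.06, -0.13 and -0.02, beside -0.05, -0.09, 0.02 and 0.02 over all genes tested.

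After the ASO 6 of 24 list genes tested were higher and 4 lower, beside 13.5% of all genes higher and 16.9% lower. Nrgn, which makes the calmodulin-binding protein neurogranin, was higher (1.32), as was Prkaa2, an AMP-activated kinase subunit gene (1.01). Pcp4, a small calmodulin-binding protein, was lower (-0.75). Clusters had been called once per treatment, so the p-values behind these calls are too small. The changes are in number of enriched clusters.

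Over the 32 R6/2 and NT m6A libraries, the genes whose values were most like those of Camkk2 were Rspo1 (r = 0.79), Egr2 (r = 0.76) and Fam19a5 (r = 0.75), and those most like Camk2a were Ube2q1 (r = 0.83), Tmem63b (r = 0.79) and Egr1 (r = 0.78). These are descriptions over libraries that share genotype, region and sex groups.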
